A study of Mus musculus with 6 samples.

Results

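The machinery that moves secretory granules to the plasma membrane, fuses them and raises the calcium that triggers fusion was followed in RNA from the whole embryonic pancreas of wild-type (wt) C57/Bl6J mice, collected 13.5 or 15.5 days post coitum (dpc). It was represented by 44 genes taken from the literature on exocytosis, namely Rab GTPases, their effectors, SNAREs, syntaxin-binding proteins, synaptotagmins, priming factors and calcium store and entry proteins. Of these, 43 were matched by symbol among the 37224 genes counted and *Vamp7* was not analysed here. Each stage had 3 independent samples, each a pool of pancreata of up to 3 embryos, with no treatment, transgene or mutation and the labels name no treatment at either stage. values are raw read counts of poly(A) RNA per gene, and the total counts were 10546028 to 16389237 per sample. Values are given below as normalised counts, which are scaled for library size and composition, or as RPKM (normalised reads per kilobase of exon, scaled to library size) where genes are compared with each other. Replicates of a stage differed in how counts ran with gene length, most of all 15.5 dpc replicates 1 and 2, whose log2 difference had a Spearman rho of -0.59 with exon length across the 15578 genes tested, which are not independent replicates. At 13.5 dpc the corresponding rho was between -0.33 and -0.029.

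Granule exocytosis is built from families of paralogues that differ between secretory cells. Rab3 and Rab27 proteins sit on granules and, when bound to GTP, recruit effectors such as the synaptotagmin-like proteins, which tether the granule below the plasma membrane. A granule SNARE of the Vamp family then zips together with syntaxin and a SNAP protein of the target membrane, with help from Munc18-type syntaxin-binding proteins and Munc13-type priming factors, and calcium acting on synaptotagmins triggers fusion. Pancreatic acinar cells release zymogen granules with Rab3d, Rab27b, Vamp8, Snap23, the apical and granule syntaxins (*Stx2* and *Stx3*) and Munc18b (*Stxbp2*), and draw calcium from stores through inositol trisphosphate receptors. Neurons and islet cells use Rab3a, Vamp2, Snap25 and *Stx1a*, and voltage-gated channels supply the calcium. On this background 10 of the members were classed as acinar-type, 20 as neuroendocrine-type and 14, with *Vamp7*, as broad. The members, the classes and the pairs compared below were chosen with earlier results of these data known.

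Of the 6 Rab GTPases 3 rose between the stages, and of the 6 Rab effectors 2, whereas most of the SNARE, priming and calcium genes did not pass the test. *Rab3d*, *Rab27b*, *Rab27a*, *Sytl1*, *Sytl4* and *Stxbp2* were higher at 15.5 dpc, by log2 fold changes of 0.67 to 1.94, and *Stx2* and *Syt1* were lower. In all, 8 of the 43 members had an adjusted p at or below 0.05 (edgeR's quasi-likelihood test with Benjamini-Hochberg adjustment over all genes tested), which is 18.6% of them against 22.3% of all genes tested. The 6 members called higher are 14% of the list against 11.6% of all genes, and the 2 called lower are 4.65% against 10.7%. The stages did not overlap for 18 members, or 41.9%, against 46.4% of all genes. In 10 of them 15.5 dpc lay above (22.8% of all genes did) and in 8 below (23.6% of all genes). Under the study's own thresholds, which allow an adjusted p up to 0.1 but add a minimum level and a minimum fold, 6 members were called against 9.88% of all genes, namely *Rab3d*, *Rab27a*, *Rab27b*, *Sytl1*, *Sytl4* and *Vamp8*. The count of called members moved with the samples used. It was 5 when 13.5 dpc replicate 1, 2 or 3 was left out (against 7.83%, 8.45% and 8.88% of all genes) or 15.5 dpc replicate 3 (9.05%), 11 on leaving out 15.5 dpc replicate 1 (26.9%) and 19 on leaving out its replicate 2 (48%). *Rab3d*, *Rab27a*, *Rab27b*, *Sytl1* and *Sytl4* were the 5 members called with all samples and under each of the 14 other settings of normalisation, tool, filter and samples. In bulk RNA, more cells of a type and more RNA per cell cannot be told apart. Summed normalised counts of acinar markers were 98920 to 118900 at 13.5 dpc and 630900 to 1347000 at 15.5 dpc. The part of acinar cell number in the changes of these genes was not tested.

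**Figure D1:**
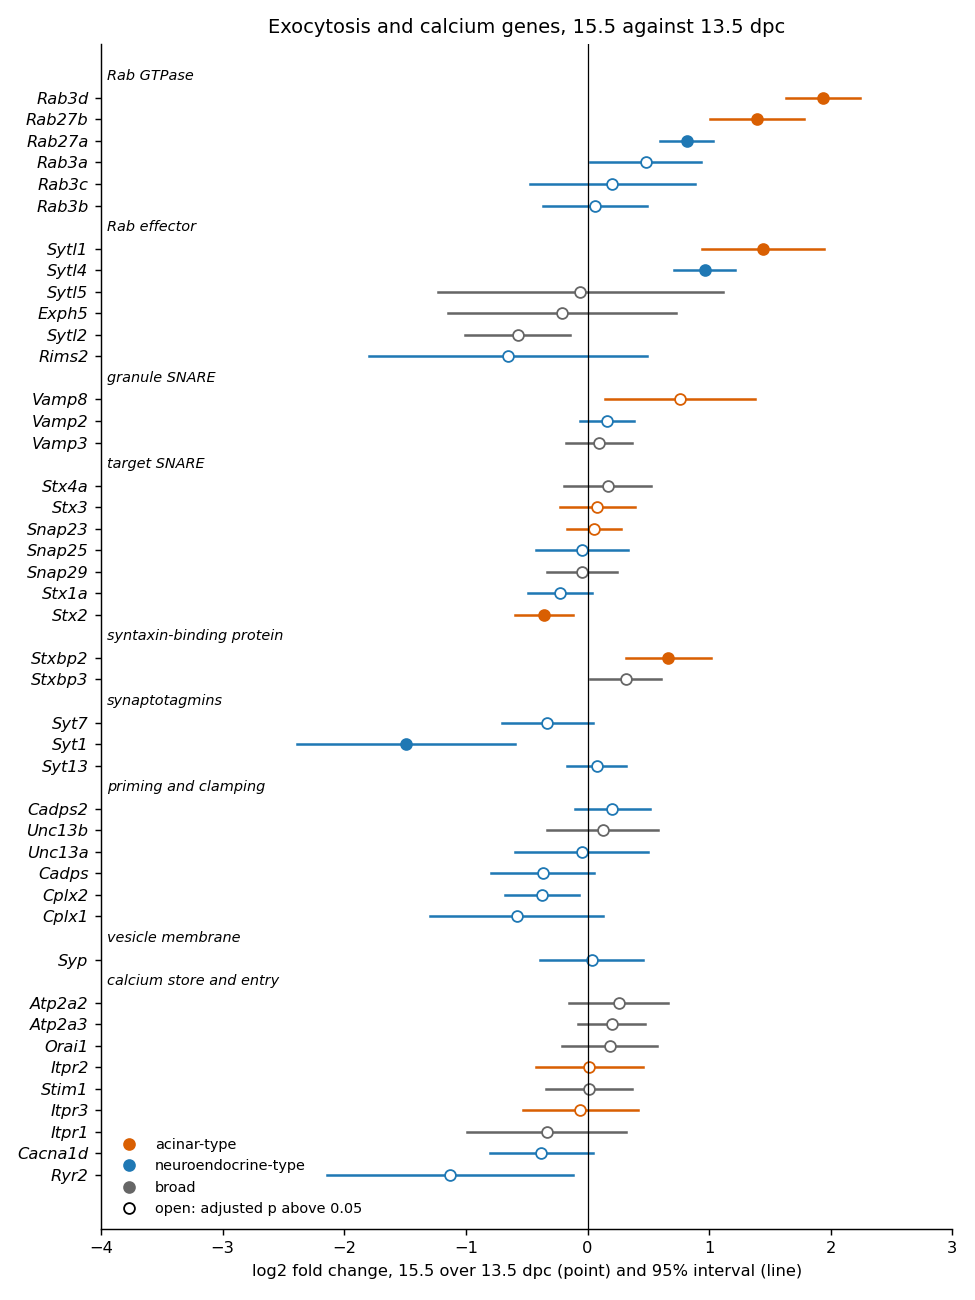
Log2 fold change of each of the 43 members between 15.5 and 13.5 dpc with its 95% interval, grouped by role and coloured by class, filled where the adjusted p is at or below 0.05. The filled points to the right are mostly Rab GTPases and their effectors, led by *Rab3d* at 1.94, and the points of the calcium store and entry genes, from -1.13 (*Ryr2*) to 0.26 (*Atp2a2*), are all open.

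The sequence before the transcription start is shown for *Rab3d*, *Sytl1*, *Sytl4* and *Rab27a*, which were called higher in every setting. *Rab27b*, also called in every setting, has no entry in the table of promoters used. They are the 250 bases upstream in RefSeq's annotation of GRCm38.p6, written from 5′ to 3′ in the direction of transcription. *Rab27a* has more than one annotated start, and the windows before both are shown. Capitals mark the E-box letters CANNTG, which read the same on both strands and are the kind of site bound by basic helix-loop-helix factors, and the GC box letters GGGCGG on either strand.
Rab3d, chr9:21918184-21918433, minus strand: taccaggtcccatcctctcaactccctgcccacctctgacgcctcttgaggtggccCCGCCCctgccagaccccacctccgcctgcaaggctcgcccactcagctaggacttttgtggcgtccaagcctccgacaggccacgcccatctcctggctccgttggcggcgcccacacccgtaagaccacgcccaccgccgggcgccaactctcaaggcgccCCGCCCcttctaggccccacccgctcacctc
Sytl1, chr4:133263088-133263337, minus strand: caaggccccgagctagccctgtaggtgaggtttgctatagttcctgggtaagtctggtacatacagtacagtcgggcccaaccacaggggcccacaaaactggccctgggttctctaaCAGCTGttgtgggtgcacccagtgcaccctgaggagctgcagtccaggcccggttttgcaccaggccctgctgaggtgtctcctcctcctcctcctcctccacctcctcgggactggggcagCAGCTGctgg
Sytl4, chrX:133981813-133982062, minus strand: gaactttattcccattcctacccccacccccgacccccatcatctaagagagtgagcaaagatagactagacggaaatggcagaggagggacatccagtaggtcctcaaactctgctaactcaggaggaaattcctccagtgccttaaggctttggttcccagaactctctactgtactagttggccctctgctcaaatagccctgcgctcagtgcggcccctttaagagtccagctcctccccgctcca
Rab27a, chr9:73044560-73044809, plus strand: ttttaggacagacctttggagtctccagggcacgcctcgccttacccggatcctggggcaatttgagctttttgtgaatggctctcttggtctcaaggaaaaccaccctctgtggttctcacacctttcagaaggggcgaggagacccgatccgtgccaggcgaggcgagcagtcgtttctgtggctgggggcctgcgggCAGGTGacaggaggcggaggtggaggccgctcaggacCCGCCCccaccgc
Rab27a, chr9:73063898-73064147, plus strand: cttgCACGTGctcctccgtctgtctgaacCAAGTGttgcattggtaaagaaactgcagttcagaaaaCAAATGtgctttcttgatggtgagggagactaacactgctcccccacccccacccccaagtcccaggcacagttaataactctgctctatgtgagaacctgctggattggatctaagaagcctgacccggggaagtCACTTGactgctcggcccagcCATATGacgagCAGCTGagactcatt
Of the *Rab27a* windows, the upstream one, next to the start of the counted gene, holds 1 CANNTG match, no CAGCTG and 1 GC box. The downstream one holds 6 CANNTG matches, 1 of them CAGCTG, and no GC box, and the *Sytl1* window holds 2, both CAGCTG. No CANNTG is in the *Rab3d* window, which has 2 GC boxes, and the *Sytl4* window holds neither. Across windows of the same length, 66.2% of the 32851 promoters in the annotation hold CANNTG, 13% hold CAGCTG and 32.7% hold GGGCGG. As counts of promoters, these are 21753, 4271 and 10756 of the 32851. Of the 38 annotated promoters of 33 members, 25 hold CANNTG, 11 hold CAGCTG and 22 hold GGGCGG, also as counts and not as percentages. These are matches of letters and no binding was measured.

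*Rab3d*, the Rab3 of zymogen granules, lies on chromosome 9 of mm10 from 21907491 to 21918192 and had 805, 826 and 919 normalised counts at 13.5 dpc and 3729.7, 2794 and 3265 at 15.5 dpc. The lowest 15.5 dpc sample was well above the highest 13.5 dpc sample, and the fold change of 3.84 corresponds to a log2 change of 1.94 with a standard error of 0.13 (edgeR, adjusted p = 0.000374). Among the members this was the highest log2 fold change, and it ranged only from 1.83 to 2.05 when single samples were left out. *Rab3a*, the Rab3 of synaptic vesicles, had 176, 189 and 162 normalised counts at 13.5 dpc and 321, 193 and 223 at 15.5 dpc. Its 15.5 dpc samples all lay above those of 13.5 dpc, but by little in replicate 2, and a log2 fold change of 0.48 (95% interval 0.018 to 0.94, adjusted p = 0.117, edgeR) did not pass the test. Without 15.5 dpc replicate 2 it did (0.64, adjusted p = 0.0134), and without replicate 1 the value was 0.24, adjusted p = 0.192. *Rab3b* and *Rab3c*, also neuronal and endocrine forms, had few counts and log2 fold changes of 0.063 (adjusted p = 0.819) and 0.20 (adjusted p = 0.622) in edgeR's test. Their stages overlapped, and both changed sign in at least one setting.

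Both Rab27 genes rose. *Rab27b*, which acts on zymogen granules, lies on chromosome 18 of mm10 from 69979131 to 70141605 and had 117, 130.3 and 111 normalised counts at 13.5 dpc and 378, 258 and 309 at 15.5 dpc, a log2 change of 1.39 with a standard error of 0.17 (edgeR, adjusted p = 0.00197). *Rab27a*, which works with granuphilin in islet cells and in several blood cells, lies on chromosome 9 of mm10 from 73044865 to 73097592 and had 249, 243 and 252 normalised counts at 13.5 dpc and 451, 439 and 421 at 15.5 dpc, a log2 change of 0.82 with a standard error of 0.093 (edgeR, adjusted p = 0.00164). Neither gene overlapped between the stages. The *Rab27a* samples were close together within each stage. Of the 50-base windows of its annotated transcripts, 3.59% also occur in transcripts annotated to another gene.

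Among the Rab effectors, an acinar-type and a neuroendocrine-type synaptotagmin-like gene rose. *Sytl1* (Slp1), an effector of Rab27b in acinar cells, lies on chromosome 4 of mm10 from 133253090 to 133263113 and had 83.8, 95.2 and 74.7 normalised counts at 13.5 dpc and 304, 190.2 and 199 at 15.5 dpc, a log2 change of 1.45 with a standard error of 0.21 (edgeR, adjusted p = 0.00438). Replicate 1 was the highest at 15.5 dpc, and without it the change was 1.21, adjusted p = 0.000376 (edgeR). *Sytl4* (granuphilin), which docks insulin granules, lies on chromosome X of mm10 from 133936385 to 133981812 and had 184, 214 and 213 normalised counts at 13.5 dpc and 386, 398 and 409 at 15.5 dpc, a log2 change of 0.96 with a standard error of 0.11 (edgeR, adjusted p = 0.00153). The lowest 15.5 dpc value of *Sytl4* was well above the highest 13.5 dpc value. *Sytl2* went the other way, with all 15.5 dpc samples below those of 13.5 dpc, at a log2 fold change of -0.57 (95% interval -1.01 to -0.14, adjusted p = 0.0631, edgeR), and it passed the test only with library size scaling (-0.78, adjusted p = 0.0284) and without 15.5 dpc replicate 2 (-0.73, adjusted p = 0.0132). *Sytl5*, *Exph5* (Slac2-b, another Rab27 effector) and *Rims2*, an active zone protein that binds Rab3, had wide intervals. For *Sytl5* and *Exph5* the log2 fold changes were -0.061 (adjusted p = 0.94) and -0.21 (adjusted p = 0.716) in edgeR's test. *Rims2* had 46.5, 62.6 and 70.4 normalised counts at 13.5 dpc and 12.5, 69.5 and 27.7 at 15.5 dpc, and the 15.5 dpc samples spread over a wider range than those of 13.5 dpc. Its log2 fold change was -0.65 (adjusted p = 0.347, edgeR) and -1.54, adjusted p = 0.00708 without 15.5 dpc replicate 2, and -0.27, adjusted p = 0.593 without replicate 1.

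**Figure D2:**
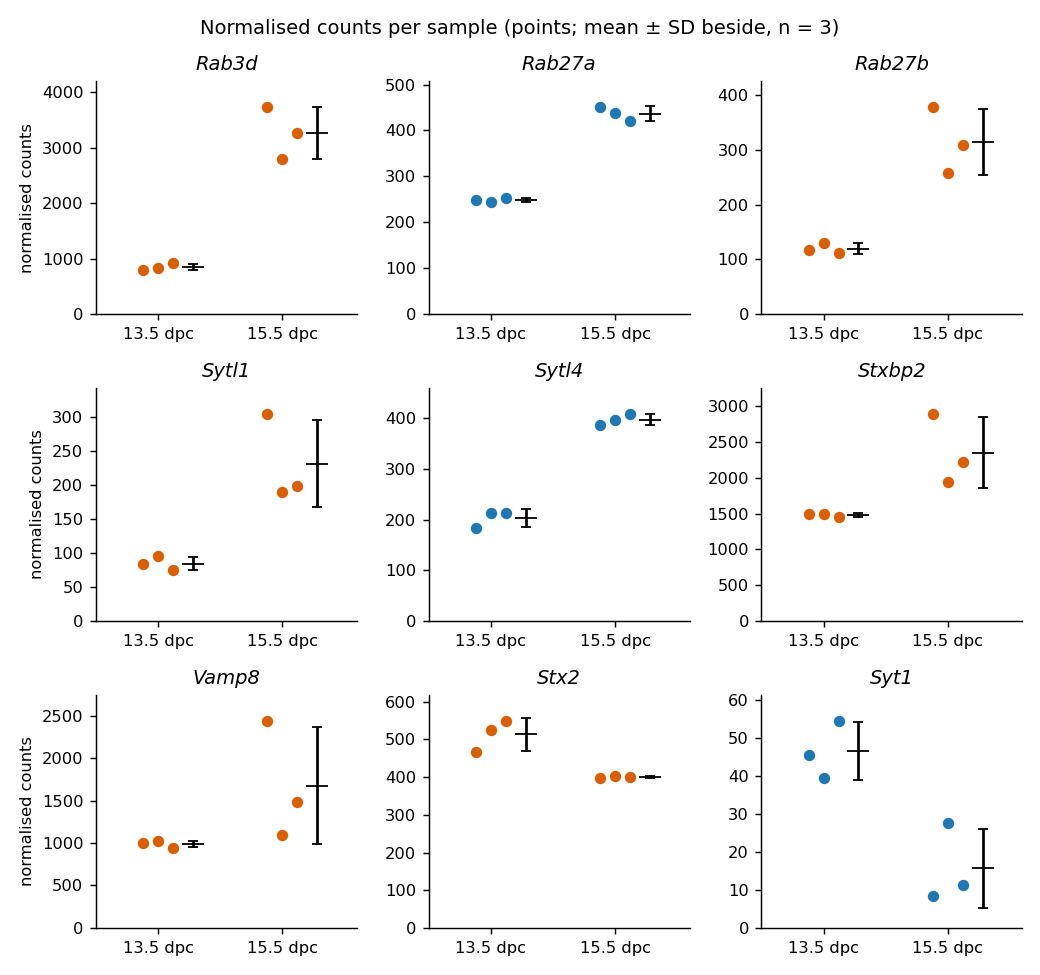
Normalised counts per sample of the 8 called members and of *Vamp8*, coloured as acinar-type (orange) or neuroendocrine-type (blue), with the mean and SD of 3 samples beside the points. The 15.5 dpc samples lie apart from the 13.5 dpc samples in every panel, and those of *Vamp8*, *Stxbp2*, *Sytl1* and *Rab27b* are spread with replicate 1 on top.

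None of the 3 granule SNAREs measured passed the test in edgeR, against 22.3% of all genes called. There 1 of them (*Vamp8*) had an unadjusted p at or below 0.05, and it was called by DESeq2. *Vamp8* (endobrevin), the main SNARE of zymogen granules, lies on chromosome 6 of mm10 from 72385223 to 72390703 and had 1001, 1019 and 947 normalised counts at 13.5 dpc and 2444, 1097 and 1488 at 15.5 dpc. All 15.5 dpc samples were higher, but replicate 2 barely so, and a log2 fold change of 0.76 (95% interval 0.14 to 1.38, adjusted p = 0.0776, edgeR) did not reach the threshold. DESeq2 called it (0.78, adjusted p = 0.0261), and in edgeR it was called when 15.5 dpc replicate 1 (0.39, adjusted p = 0.0462) or replicate 2 (1.00, adjusted p = 0.00262) was left out and with the trend with gene length removed (0.64, adjusted p = 0.0399). The study's thresholds called it as well. *Vamp2*, the synaptic vesicle SNARE, which acinar granules carry as well, had 1174, 1278 and 1197 normalised counts at 13.5 dpc and 1472, 1272 and 1326 at 15.5 dpc, a log2 fold change of 0.16 (95% interval -0.065 to 0.38, adjusted p = 0.254, edgeR). *Vamp3* (cellubrevin), of recycling endosomes, had a log2 fold change of 0.094 (adjusted p = 0.575) in edgeR's test. For both genes the stages overlapped.

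The target membrane SNAREs showed 1 call among 7 genes, against 22.3% of all genes called. *Snap23*, the SNAP protein of acinar cells, had 723, 671 and 634 normalised counts at 13.5 dpc and 671, 734 and 695 at 15.5 dpc, a log2 fold change of 0.051 (95% interval -0.17 to 0.27, adjusted p = 0.713, edgeR). *Snap25*, its neuronal and islet counterpart, had 60.1, 73.7 and 77.6 normalised counts at 13.5 dpc and 62.3, 68.5 and 74.3 at 15.5 dpc, a log2 fold change of -0.046 (95% interval -0.43 to 0.34, adjusted p = 0.854, edgeR). *Snap29*, which serves intracellular membranes, had a log2 fold change of -0.046 (95% interval -0.33 to 0.24, adjusted p = 0.801, edgeR). The stages overlapped for all 3 SNAP genes, and their intervals leave room for changes of -0.43 to 0.34 at the widest. Of the syntaxins, *Stx2*, which sits at the apical membrane of acinar cells, was lower. It had 466, 526 and 550.2 normalised counts at 13.5 dpc and 399, 404 and 400.4 at 15.5 dpc, a log2 change of -0.36 with a standard error of 0.10 (edgeR, adjusted p = 0.0423). Its 15.5 dpc samples were nearly equal and all below those of 13.5 dpc, but the call was lost in 6 of the 14 other settings, among them the removal of a 13.5 dpc replicate (adjusted p = 0.0799, 0.155 and 0.165), the removal of 15.5 dpc replicate 3 (adjusted p = 0.144) and the replicate block (adjusted p = 0.0957, edgeR). Its log2 fold change was -0.42 to -0.31 across samples left out. *Stx3*, the syntaxin of zymogen granule membranes, had 254, 269 and 270.1 normalised counts at 13.5 dpc and 328, 270.0 and 243 at 15.5 dpc, a log2 fold change of 0.082 (95% interval -0.23 to 0.39, adjusted p = 0.67, edgeR). *Stx1a*, of neurons and islet cells, had 369, 355 and 368 normalised counts at 13.5 dpc and 313, 278 and 344 at 15.5 dpc, a log2 fold change of -0.23 (95% interval -0.49 to 0.033, adjusted p = 0.172, edgeR), with all 15.5 dpc samples below, and it was called lower with library size scaling (-0.44, adjusted p = 0.0336). *Stx4a*, a basolateral syntaxin, had a log2 fold change of 0.17 (adjusted p = 0.447) in edgeR's test.

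Both syntaxin-binding proteins had all 15.5 dpc samples above those of 13.5 dpc, as did 22.8% of all genes tested. *Stxbp2* (Munc18b), the partner of apical syntaxins in acinar cells and of granule fusion in blood cells, lies on chromosome 8 of mm10 from 3630955 to 3643644 and had 1491, 1499.6 and 1457 normalised counts at 13.5 dpc and 2894, 1943 and 2221 at 15.5 dpc, a log2 change of 0.67 with a standard error of 0.15 (edgeR, adjusted p = 0.0194). When any one 13.5 dpc replicate or 15.5 dpc replicate 3 was left out it did not pass (adjusted p = 0.0838, 0.08, 0.086 and 0.063, edgeR), with log2 fold changes between 0.65 and 0.71. *Stxbp3* (Munc18c) had a log2 fold change of 0.31 (adjusted p = 0.106) and passed only without 15.5 dpc replicate 2 (0.40, adjusted p = 0.0214, edgeR). Of the windows of *Stxbp3*, 9.27% are shared, mostly with its pseudogene, and its count is uncertain to that extent.

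*Syt1*, the calcium sensor of fast transmitter release, fell. It had 50, 46 and 76 raw counts at 13.5 dpc and 6, 27 and 9 at 15.5 dpc, which correspond to 45.6, 39.4 and 54.6 normalised counts at 13.5 dpc and 8.30, 27.6 and 11.3 at 15.5 dpc and a log2 change of -1.49 with a standard error of 0.38 (edgeR, adjusted p = 0.0313). These counts are low, and the call was lost without any one 13.5 dpc replicate or 15.5 dpc replicate 3 (adjusted p = 0.0761 to 0.118, edgeR). Across samples left out the log2 fold change was -2.22 to -1.21, the lowest being without 15.5 dpc replicate 2 (-2.22, adjusted p = 0.00114). Summed neuronal markers were 6903 to 7270.0 normalised counts at 13.5 dpc and 5165 to 5277 at 15.5 dpc in these samples. Of the 16 tested, 8 were lower and 2 (*Ret* and *Prph*) higher. Their highest mean at 13.5 dpc was that of *Hand2* (2099, and 1013 at 15.5 dpc). The part of these markers in the change of *Syt1* was not tested. *Syt7*, a slow, high-affinity sensor of islet and other granules, had all 15.5 dpc samples below those of 13.5 dpc, at a log2 fold change of -0.33 (95% interval -0.71 to 0.047, adjusted p = 0.172, edgeR). With single samples left out this value was -0.41 to -0.18. *Syt13*, a synaptotagmin of endocrine progenitors that lacks calcium binding, was among the most abundant neuroendocrine-type members, from 25.9 ± 1.15 to 27.2 ± 2.73 RPKM (SD, n = 3), and its log2 fold change was 0.075 (adjusted p = 0.612) in edgeR's test. Its stages overlapped.

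None of the 6 priming and clamping genes passed the test in edgeR, against 22.3% of all genes called. There 1 of them (*Cplx2*) had an unadjusted p at or below 0.05. *Cplx2*, a complexin that clamps and promotes SNARE zippering and is used by both islet and acinar cells, had 1203, 1239 and 1348 normalised counts at 13.5 dpc and 868, 1158 and 903 at 15.5 dpc, a log2 fold change of -0.37 (95% interval -0.68 to -0.067, adjusted p = 0.0791, edgeR). All 15.5 dpc samples were below the 13.5 dpc samples, and it was called lower without 15.5 dpc replicate 2 (-0.50, adjusted p = 0.00396), with library size scaling (-0.57, adjusted p = 0.0419) and with the length trend removed (-0.26, adjusted p = 0.047). *Cplx1*, at 7 to 22 raw counts per sample, had a log2 fold change of -0.58 (adjusted p = 0.196), and of -0.74 to -0.28 across samples left out. *Cadps*, which primes dense-core granules, had a log2 fold change of -0.37 (adjusted p = 0.174), which was -0.52, adjusted p = 0.0284 without 15.5 dpc replicate 2 and -0.21, adjusted p = 0.285 without replicate 1, and its relative *Cadps2*, higher in all 15.5 dpc samples, by 0.20 (adjusted p = 0.278). The Munc13 genes *Unc13a* and *Unc13b* had log2 fold changes of -0.049 (adjusted p = 0.894) and 0.13 (adjusted p = 0.653), and *Unc13b*, with 13497 exon bases, was called higher once the length trend was removed (0.46, adjusted p = 0.00298, edgeR). *Syp* (synaptophysin), the membrane protein of synaptic-like vesicles, had a log2 fold change of 0.036 (adjusted p = 0.9), with overlapping stages and a sign that differed between settings. Exons of *Syp*, *Unc13a* and *Cacna1d* overlap those of a gene on the other strand by 875, 493 and 518 bases. The overlapping genes had 25, 13092 and 760 counts in total. *Rab3b*, *Itpr3*, *Stx4a*, *Snap29*, *Rab3a*, *Atp2a2* and *Orai1* have such overlaps of 7 to 317 bases. The sources used here do not state whether counting used the strand. No called member shares exon bases with another gene.

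None of the 9 calcium store and entry genes passed the test in edgeR, against 22.3% of all genes called. There 1 of them (*Ryr2*) had an unadjusted p at or below 0.05. DESeq2, which called 27.5% of all genes, called none of the 9 either. *Itpr3*, the inositol trisphosphate receptor of the apical acinar pole, had 1479, 1443 and 1712 normalised counts at 13.5 dpc and 1143, 1985 and 1319.7 at 15.5 dpc, a log2 fold change of -0.058 (95% interval -0.53 to 0.41, adjusted p = 0.852, edgeR). *Itpr1*, the main form in neurons, had 493, 502 and 588 normalised counts at 13.5 dpc and 246, 594 and 407 at 15.5 dpc, a log2 fold change of -0.34 (95% interval -0.99 to 0.32, adjusted p = 0.396, edgeR). In both genes 15.5 dpc replicate 1 was the lowest and replicate 2 the highest of all 6 samples. *Itpr2* had a log2 fold change of 0.015 (adjusted p = 0.961) in edgeR's test. *Atp2a2* (SERCA2), the pump that refills the stores, had 3474, 3425 and 4056 normalised counts at 13.5 dpc and 3291, 5241 and 4548 at 15.5 dpc, a log2 fold change of 0.26 (95% interval -0.15 to 0.66, adjusted p = 0.305, edgeR), and *Atp2a3* (SERCA3) had a log2 fold change of 0.20 (adjusted p = 0.243). Both pumps were called higher without 15.5 dpc replicate 1 (0.42, adjusted p = 0.0144 and 0.29, adjusted p = 0.042) and with the length trend removed (0.37, adjusted p = 0.0401 and 0.32, adjusted p = 0.00953, edgeR). Across samples left out the log2 fold changes were 0.12 to 0.42 for *Atp2a2* and 0.12 to 0.29 for *Atp2a3*. *Stim1* and *Orai1*, the sensor and the channel of store-operated entry, had log2 fold changes of 0.011 (adjusted p = 0.963) and 0.18 (adjusted p = 0.437). *Cacna1d*, an L-type channel of islet cells, had a log2 fold change of -0.38 (adjusted p = 0.165), and *Ryr2*, the ryanodine receptor of heart and neurons, by -1.13 (adjusted p = 0.0972) at 6 to 54 raw counts per sample. Without 15.5 dpc replicate 2, *Itpr1* (-0.67, adjusted p = 0.0209), *Cacna1d* (-0.57, adjusted p = 0.0115) and *Ryr2* (-1.95, adjusted p = 0.00414) were called lower and *Orai1* (0.36, adjusted p = 0.042) higher. Without 15.5 dpc replicate 1 the values were -0.070, adjusted p = 0.77 for *Itpr1* and -0.22, adjusted p = 0.247 for *Cacna1d* (edgeR). Across samples left out the log2 fold change was 0.060 to 0.36 for *Orai1* and -1.95 to -0.85 for *Ryr2*.

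Of these genes *Itpr1*, *Itpr2*, *Itpr3*, *Ryr2* and *Cacna1d* are long, with up to 16849 exon bases in *Ryr2*, whereas *Orai1* is among the shortest members with 2289. Over the 43 members, the log2 difference of a sample from the 13.5 dpc mean had a Spearman rho with exon length of -0.445, 0.18 and -0.341 in 15.5 dpc replicates 1, 2 and 3 and of -0.294, -0.323 and 0.51 in the 13.5 dpc replicates. The members share the library they were measured in, and the values are descriptive. With the trend removed from each library, 15 members were called, 12 higher and 3 lower, against 32.8% of all genes. The members added were *Vamp8*, *Cplx2*, *Unc13b*, *Cadps2*, *Itpr2*, *Atp2a2* and *Atp2a3*, and none of the 8 was lost.

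**Figure D3:**
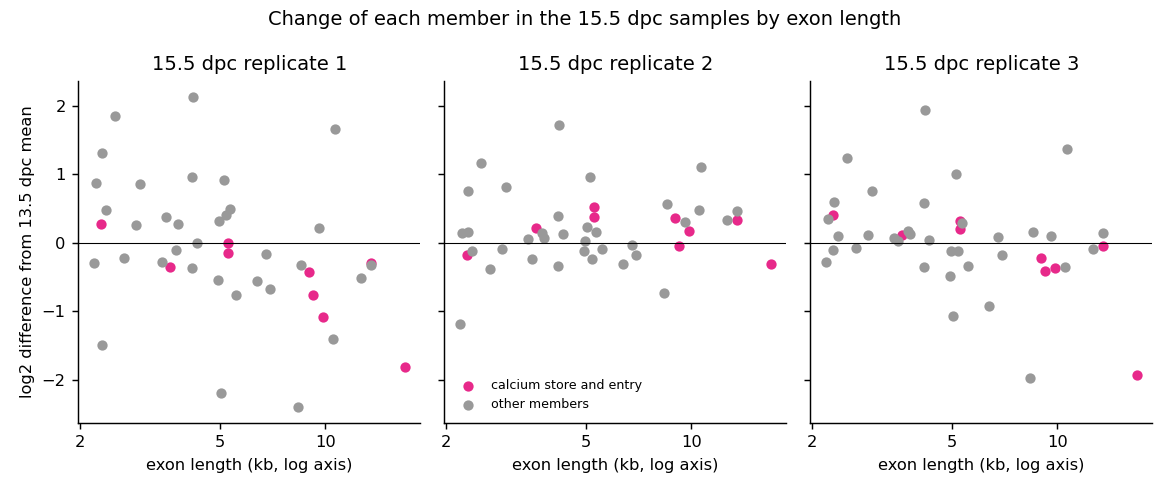
Log2 difference of each member from its 13.5 dpc mean in each 15.5 dpc sample, plotted against exon length in kilobases on a log axis, with the calcium store and entry genes in pink. Long genes lie lower in replicates 1 and 3 (rho of -0.445 and -0.341) than in replicate 2 (0.18), and the high points are *Rab3d*, *Sytl1* and *Rab27b* in each sample.

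The acinar-type genes were next set against their paralogues within each sample, as a log2 ratio of counts per kilobase, for which the scaling of the library cancels out but for the prior count. With 3 samples against 3, an exact permutation test (two-sided) cannot give a p below 0.1, so no pair could reach 0.05. Of 7 pairs compared, 5 had all 15.5 dpc ratios above those of 13.5 dpc, toward the acinar-type gene (exact permutation test, p = 0.1 each, 0.14 after Benjamini-Hochberg adjustment over the 7 pairs). The log2 ratio of *Rab3d* to *Rab3a* was 1.28, 1.21 and 1.58 at 13.5 dpc and 2.62, 2.94 and 2.95 at 15.5 dpc, a change of 1.48, so that *Rab3d* went from 2.56 to 7.14 times the level of *Rab3a* per kilobase. Both genes of the Rab27 pair rose, with log2 ratios of *Rab27b* to *Rab27a* of -2.94, -2.75 and -3.02 at 13.5 dpc and -2.10, -2.61 and -2.29 at 15.5 dpc, a change of 0.57, or 0.90 with the length trend removed. *Rab27a* remained the more abundant per kilobase, by 7.47 times at 13.5 dpc and 5.05 times at 15.5 dpc, on exon lengths of 2971 and 10679 bases.

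For *Vamp8* and *Vamp2* the stage means differed by 0.53, from log2 ratios of 0.49, 0.39 and 0.38 at 13.5 dpc and 1.45, 0.51 and 0.89 at 15.5 dpc, with replicate 2 close to the 13.5 dpc samples, and by 0.27 without 15.5 dpc replicate 1. For *Sytl1* and *Sytl4*, which both rose, the change was 0.46, and it crossed 0, since *Sytl4* had the higher mean level at 13.5 dpc and *Sytl1* at 15.5 dpc. This crossing rests on 15.5 dpc replicate 1, the only sample with a ratio above 0 (0.68), without which the change was 0.22, and it was 0.27 with the length trend removed. The ratio of *Itpr3* to *Itpr1* was higher by 0.33, from log2 ratios of 1.72, 1.66 and 1.67 at 13.5 dpc and 2.34, 1.87 and 1.83 at 15.5 dpc, although neither gene passed the test alone, and by 0.17 without 15.5 dpc replicate 1. The remaining pairs overlapped. For *Stx3* over *Stx1a* the difference was 0.30 (exact permutation test, p = 0.3) and for *Snap23* over *Snap25* 0.086 (exact permutation test, p = 0.6). *Snap23* was 15.2 times as abundant per kilobase as *Snap25* at 13.5 dpc and 16.1 times at 15.5 dpc.

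**Figure D4:**
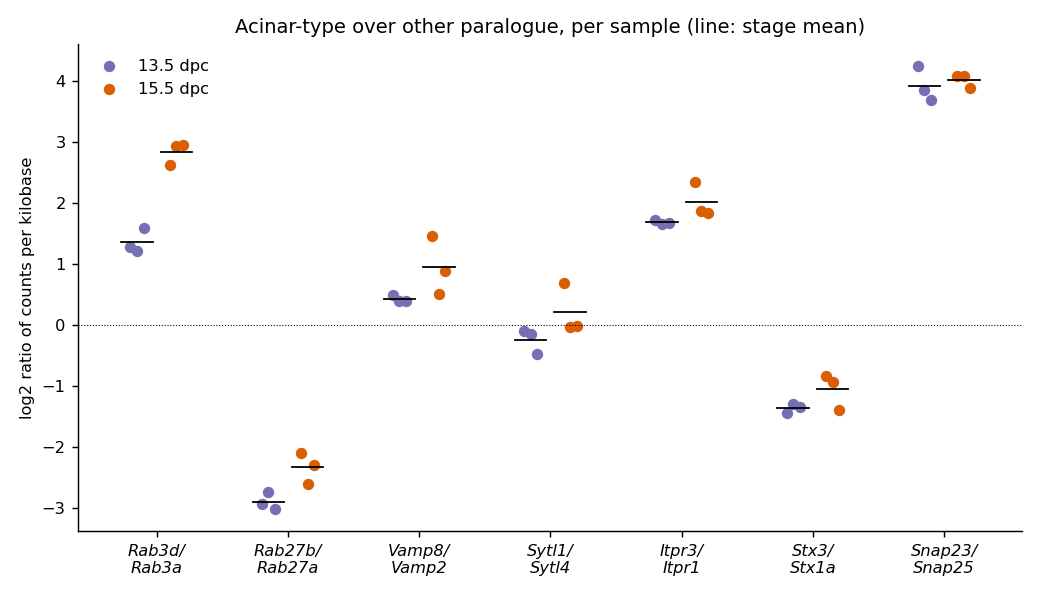
Log2 ratio of counts per kilobase of the acinar-type gene over its paralogue in each sample at 13.5 dpc (purple) and 15.5 dpc (orange), with lines at the stage means. The 15.5 dpc points lie above the 13.5 dpc points in 5 of the 7 pairs, farthest in *Rab3d* over *Rab3a*, and overlap in the syntaxin and SNAP pairs.

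Levels within whole families are given as a share of the summed level per kilobase. *Rab3d* made up 65.1%, 64.8% and 69.6% at 13.5 dpc and 83.7%, 86.1% and 86.3% at 15.5 dpc of the 4 Rab3 genes, and the summed Rab3 level was 24.1 ± 0.791 and 72.2 ± 11.4 RPKM (SD, n = 3). The shares of *Rab3a*, *Rab3b* and *Rab3c* were all lower at 15.5 dpc without overlap, while none of these genes fell in the test above. *Vamp8* made up 34.6%, 35.1% and 35.2% at 13.5 dpc and 52.5%, 37.9% and 42.8% at 15.5 dpc of the 3 Vamp genes. *Sytl1* went from 30.1% ± 4.88 to 45.1% ± 10.2 of the 4 synaptotagmin-like genes and *Sytl2* from 12.2% ± 1.44 to 4.45% ± 0.791 (SD, n = 3). Leaving out 15.5 dpc replicate 1 reduced the difference between stages from 15.0 to 9.28 percentage points for *Sytl1* and from 9.43 to 5.36 for *Vamp8*, and for *Itpr3* from 3.06 to 1.59. In the syntaxins the broad *Stx4a* held the most at both stages, with 53.0% ± 1.50 and 59.2% ± 4.08, and the summed syntaxin level was 52.7 ± 1.29 and 52.7 ± 7.58 RPKM. *Itpr3* held 71.8% ± 0.530 and 74.8% ± 2.60 of its family, and *Atp2a2* 82.0% ± 0.689 and 82.5% ± 1.64 of the pumps (SD, n = 3).

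Per length, the members spanned a wide range of levels. *Atp2a2* was the highest at both stages, from 54.6 ± 5.25 to 65.2 ± 14.8 RPKM (SD, n = 3). *Rab3d* moved from the 9th to the 2nd place, from 16.0 ± 1.15 to 61.5 ± 8.82 RPKM (SD, n = 3), and at 15.5 dpc its mean lay within the SD of *Atp2a2* and of *Vamp8*, which went from 33.9 ± 1.27 to 57.4 ± 23.7 RPKM (SD, n = 3). *Stxbp2* was 4th at both stages, from 28.2 ± 0.430 to 44.8 ± 9.30 RPKM (SD, n = 3). *Sytl1* moved from the 29th to the 19th place, *Sytl4* from the 28th to the 20th and *Rab27b* from the 36th to the 30th. At the lower end, *Rab3c*, *Syt1* and *Ryr2* stayed below 1 RPKM at both stages, with 0.203 ± 0.0625, 0.149 ± 0.0985 and 0.0633 ± 0.0451 RPKM at 15.5 dpc (SD, n = 3). *Snap25* was below 1 RPKM as well, from 0.821 ± 0.107 to 0.797 ± 0.0700 RPKM (SD, n = 3). Exon lengths are those of the deposited table, which counts all annotated exons of a gene, so that RPKM of a gene with long unused exons is too low.

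**Figure D5:**
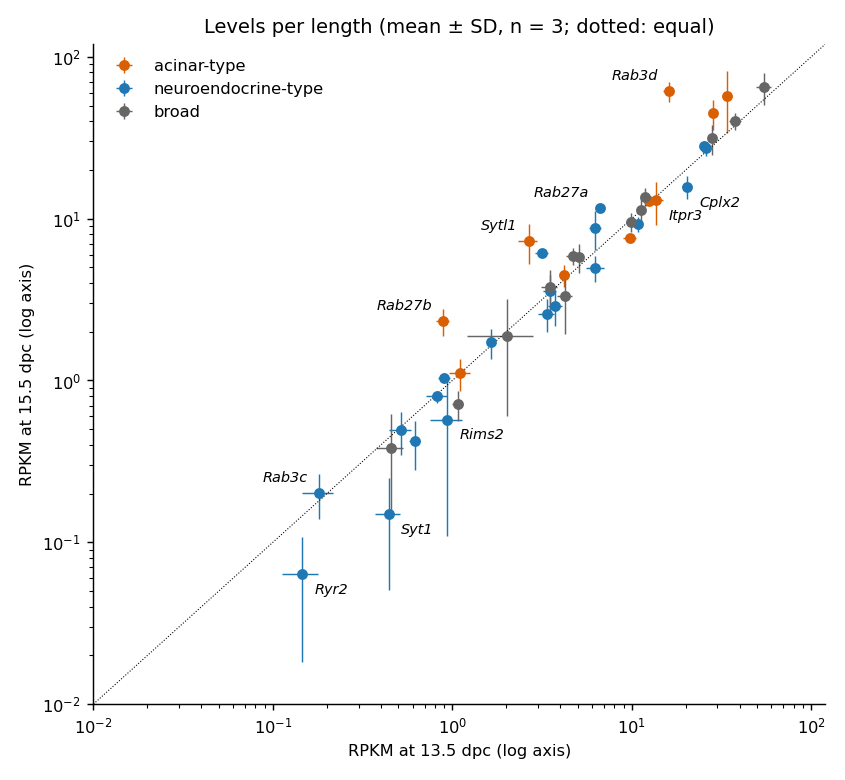
Mean level of each member in RPKM at 13.5 dpc and at 15.5 dpc, both on log axes, with SD bars over 3 samples and a dotted line of equal levels. *Rab3d*, *Rab27a*, *Rab27b*, *Sytl1* and *Sytl4* lie above the line and *Syt1* and *Ryr2* below it, and most other members lie closer to it.

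By class, the median log2 fold change was 0.37 for the 10 acinar-type members, -0.047 for the 20 neuroendocrine-type members and 0.094 for the 13 broad members, beside -0.011 over all genes tested, of which 11.6% were called higher and 10.7% lower. The acinar-type class had 4 genes called higher (*Rab3d*, *Rab27b*, *Sytl1* and *Stxbp2*) and 1 lower (*Stx2*), and the other 5 (*Vamp8*, *Stx3*, *Snap23*, *Itpr2* and *Itpr3*) did not pass. The neuroendocrine-type class had 2 called higher (*Rab27a* and *Sytl4*), 1 lower (*Syt1*) and 17 that did not pass, and its median was negative or positive depending on the setting. With all samples and the main settings, no broad member was called in edgeR, where 2 of the 13 (*Sytl2* and *Stxbp3*) had an unadjusted p at or below 0.05, and DESeq2 called none of them. Other settings called *Unc13b*, *Atp2a2* and *Atp2a3* (length trend removed), *Atp2a2* and *Atp2a3* (15.5 dpc replicate 1 left out), *Sytl2* (library size scaling) and *Sytl2*, *Stxbp3*, *Itpr1* and *Orai1* (15.5 dpc replicate 2 left out).

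Around the members, a wider set of 121 exocytosis and calcium genes was tested in the same fit. Of these, 114 passed the filter on low counts, and 11 rose and 17 fell, while the median log2 fold change of the set was -0.062. The 28 calls stand against 22.3% of all genes called, 11.6% higher and 10.7% lower. On leaving out 13.5 dpc replicate 1, 2 or 3 the calls were 9 (6 higher and 3 lower, against 7.83% of all genes), 12 (6 higher and 6 lower, against 8.45% of all genes) or 11 (6 higher and 5 lower, against 8.88% of all genes). On leaving out 15.5 dpc replicate 1, 2 or 3 they were 37 (19 higher and 18 lower, against 26.9% of all genes), 51 (20 higher and 31 lower, against 48% of all genes) or 11 (7 higher and 4 lower, against 9.05% of all genes). The balance of higher and lower calls thus differed between samples and settings, and with the length trend removed 23 were higher and 20 lower. The Rab cycle and effector genes had 4 higher and 1 lower of 18, the SNARE cycle 4 higher and 1 lower of 24, and the vesicle membrane genes 2 higher and 1 lower of 16. Synaptotagmin and other C2 domain genes had 7 lower and none higher of 21, the exocyst 2 lower of 11, and the calcium genes 1 higher and 5 lower of 24. The 3 highest changes among called genes with at least 100 normalised counts in either stage were those of *Rab26* (log2 fold change 1.85, adjusted p = 0.00123), a Rab of secretory granules, *Rims4* (1.24, adjusted p = 0.000934) and *Syngr2* (1.17, adjusted p = 0.005), a synaptogyrin of non-neuronal cells, in edgeR's test. *Rab26* shares 267 exon bases with *Traf7* on the same strand. The 3 lowest were *Syt6* (-2.86, adjusted p = 0.000534), *Cacna1c* (-1.19, adjusted p = 0.0477), the L-type channel of muscle, and *Doc2b* (-0.98, adjusted p = 0.00285), a calcium sensor of insulin granules.

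Several members are used by more than one cell type of the pancreas, and markers of the cell types were summed in each sample. Of 15 acinar marker genes, 14 were tested and 13 were higher at 15.5 dpc, and their summed normalised counts were 98920 to 118900 at 13.5 dpc and 630900 to 1347000 at 15.5 dpc. In this list *Ctrb1* had the highest mean at both stages (33860 and 456500). Of 19 endocrine markers, 9 were higher and 3 lower, with sums of 34450 to 37230 at 13.5 dpc and 37660 to 59630 at 15.5 dpc. In this list *Gcg* had the highest mean at both stages (15870 and 12730) and was not called. *Ins1* and *Ins2*, among the 9 higher, went from 877 and 1494 to 5225 and 9338. Of 17 neuronal markers, 16 were tested, 2 were higher and 8 lower, with sums of 6903 to 7270.0 at 13.5 dpc and 5165 to 5277 at 15.5 dpc. Neurons and islet cells share *Syt1*, *Snap25*, *Rab3a* and other neuroendocrine-type members, so the sums for both are given. Sums of 10 leukocyte markers, a cell type that uses *Rab27a*, *Stxbp2* and *Vamp8*, were 1830.0 to 1925 at 13.5 dpc and 1668 to 2387 at 15.5 dpc, and those of 6 megakaryocyte markers 252 to 282 at 13.5 dpc and 183 to 363 at 15.5 dpc. Epithelial markers were 24540 to 25820 at 13.5 dpc and 32600 to 41980 at 15.5 dpc with 4 of 7 higher, and those of mesenchyme 95590 to 107600 at 13.5 dpc and 72370 to 104800 at 15.5 dpc. Glia, endothelium and smooth muscle and heart had sums of 1571 to 1887 at 13.5 dpc and 1373 to 1973 at 15.5 dpc, 6446 to 6914 at 13.5 dpc and 6547 to 7475 at 15.5 dpc and 2185 to 2282 at 13.5 dpc and 2386 to 3252 at 15.5 dpc, respectively. None of the 108 markers was at 0 in all samples. The part of these cell types in the changes of the members was not tested.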

How the data were processed

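Strand-specific libraries of poly(A) RNA were prepared by the authors from pancreata at 13.5 and 15.5 dpc. Per the study's methods, GSNAP aligned the reads to mm10, and reads with a unique alignment were counted per gene of Ensembl 69 by featureCounts 1.4.6. The raw counts were deposited with no normalisation, beside each gene's exon length. Whether counting used the strand is not given in the sources used here. The labels also name bcl2fastq 1.8.4. Of 37224 identifiers, 35449 had a symbol in a table of Ensembl gene names. No deposited column of sample values was left unused.

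Counts were tested with edgeR 4.0.16 in R 4.3.3 (filterByExpr, TMM, quasi-likelihood test without covariates, 6 samples, Benjamini-Hochberg adjustment over the 15578 genes kept). All 43 matched members passed the filter. Standard errors are the log2 fold change over the root of F, and 95% intervals use the test's degrees of freedom. RPKM and counts per kilobase used the deposited exon lengths, and pair ratios a prior of 0.5 counts. The study's methods describe a sample as a pool of up to 3 embryos, so p-values measure the spread between pools. The alternatives were RLE, upper quartile and library size scaling, DESeq2 1.42.0, other filters (none, or at least 10 counts in every sample), a replicate block, a lowess trend with gene length removed (span 0.5), each sample left out, the thresholds of the study's methods, a pair prior of 2 counts and another class assignment (*Vamp2*, *Syt1*, *Syt7* and *Cplx2* as broad). Family shares and their alternatives were added after seeing the data. The procedure was tested on simulated data. No replicates agreed within counting noise (chi-square per gene of 1.61 or more).

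One gene of the pairs and of the wider list is not reported here. The members, classes, pairs, markers and the wider gene list were chosen with earlier results of these data known. Values per sample are given for both genes of each pair and for members with an adjusted p at or below 0.05 and at least 100 normalised counts in either stage, and for *Syt1*, *Rims2*, *Cplx2* and *Atp2a2*, which were added after their values were seen. Of the wider list, the 3 highest and 3 lowest called genes above that level are named. Figures were drawn with matplotlib 3.10.9.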

Additional observations from a re-analysis of the deposited data

How the results depend on the processing

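The 8 members called were 7 to 9 under the other normalisations that correct for composition, DESeq2 and the filters, 11 with library size scaling and 6 under the thresholds of the study's methods (adjusted p at or below 0.1, a level over 100 normalised counts and a fold under 0.6 or over 1.6), and 15 with the gene length trend removed, 12 of them higher. When each sample was left out they were 5 to 19, with 5 to 10 higher and 0 to 9 lower. None was lower without any one 13.5 dpc replicate or 15.5 dpc replicate 3 in edgeR, where 4, 3, 3 and 2 members were lower at an unadjusted p at or below 0.05, and DESeq2 with all samples called 2 lower. The lower count was 5 with library size scaling and 1 with no filter, with at least 10 counts in every sample and with the replicate block. The other pathway genes called were 9 to 51 across samples left out, with 6 to 20 higher and 3 to 31 lower. With the length trend removed they were 43, of which 23 higher, DESeq2 called 17 higher, and library size scaling gave 28 lower. Of all genes, 22.1% were called with RLE, 22.6% with the upper quartile, 26.2% with library size scaling, 27.5% by DESeq2, 14.4% with no filter, 22.6% with at least 10 counts in every sample, 17.2% with the replicate block and 32.8% with the length trend removed. What caused these shifts was not tested.

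Library size scaling moved the median of all genes to -0.22, and the class medians to 0.15 (acinar-type), -0.25 (neuroendocrine-type) and -0.13 (broad), to be read against that shift. The neuroendocrine-type median was 0.035 with at least 10 counts in every sample, 0.10 with the length trend removed and -0.15 to 0.014 across samples left out, and the broad median -0.065 to 0.14. The acinar-type median stayed positive in all settings run. Of the pairs, *Rab27b* over *Rab27a* changed by 0.90 with the length trend removed, and *Snap23* over *Snap25* by -0.033, and by -0.031 to 0.25 across samples left out. The change of *Atp2a2* in its family was -0.17 to 1.34 percentage points across samples left out.

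Among the settings run, signs changed only for members that did not pass the test, with these log2 fold changes. With library size only, *Rab3b* -0.16, *Vamp2* -0.061, *Vamp3* -0.13, *Stx3* -0.14, *Stx4a* -0.062, *Snap23* -0.16, *Syt13* -0.13, *Unc13b* -0.068, *Cadps2* -0.0050, *Syp* -0.19, *Itpr2* -0.18, *Atp2a3* -0.0046, *Stim1* -0.19 and *Orai1* -0.034 had changed sign. With gene length trend removed, *Exph5* 0.024, *Snap25* 0.14, *Unc13a* 0.25 and *Itpr3* 0.18 had changed sign. With the upper quartile, *Itpr2* -0.016 and *Stim1* -0.019 had changed sign. With no filter, *Itpr2* -0.0070 and *Stim1* -0.011 had changed sign. With at least 10 counts in every sample, *Stim1* -0.00086 had changed sign. With replicate block, *Stim1* -0.0061 had changed sign. Across samples left out they were *Rab3b* -0.11 to 0.22, *Rab3c* -0.045 to 0.40, *Sytl5* -0.70 to 0.32, *Exph5* -0.79 to 0.13, *Stx3* -0.041 to 0.17, *Stx4a* -0.013 to 0.31, *Snap25* -0.15 to 0.029, *Snap29* -0.11 to 0.059, *Unc13a* -0.29 to 0.14, *Unc13b* -0.065 to 0.31, *Syp* -0.18 to 0.17, *Itpr2* -0.16 to 0.15, *Itpr3* -0.31 to 0.10 and *Stim1* -0.088 to 0.16. Of 598 comparisons of 43 members, 511 kept direction and side of the threshold, 14 lost a call, 25 gained one and 48 changed sign.

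Replicate numbers gave no pairing: across genes, deviations from the stage mean correlated between equal numbers at 0.22, -0.22 and 0.038. With the replicate block 7 members were called, without *Stx2* (-0.35, adjusted p = 0.0957, edgeR). *Syt1*, *Cplx1* and *Ryr2* rest on few counts (6 to 76, 7 to 22 and 6 to 54 raw counts per sample).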
